A study of Caenorhabditis elegans with 2 samples.

Results

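The regions described here are strong ChIP-seq peaks of the transcription factor TTX-3 that lay inside introns of protein-coding genes and away from promoters. They were chosen from the pooled list of both replicates: of the 3000 regions with the highest pooled signal, those on nuclear chromosomes were kept if the summit lay more than 100 bp from any tRNA, snoRNA or snRNA gene, outside the stretch from 1000 bp upstream to 300 bp downstream of every protein-coding 5′ end, and inside a protein-coding gene but in no exon of it. This left 635 members of the 30000 regions in the pooled list. Of the other strong regions, 1378 lay in promoter windows, 542 were intergenic and outside promoter windows (distal intergenic), 319 lay at small RNA genes, 114 in exons and 12 on the mitochondrial genome. Because the pooled signal and the annotation chose the members, their pooled signal and their location are given as description.

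All regions came from 1 group of 2 biological replicates of hermaphrodite Caenorhabditis elegans late embryos, collected 4 hours after synchronization by bleaching. The strain, OP68 (unc-119(ed3) III; wgIs68), carries a transgene that expresses TTX-3 fused at its C terminus to GFP and FLAG, and an antibody against GFP was used for the precipitation. The transgene brings its own ttx-3 sequence beside the endogenous gene, so reads from the 2 copies cannot be told apart at that locus. Whole embryos were profiled, in which TTX-3 is made in few cells, and no second genotype, stage or antibody was compared. The lists give no number of reads for either library, so the depth behind each value cannot be stated, and the control was not analysed here.

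TTX-3 is a LIM homeodomain factor. Homeodomains bind short DNA sites built around the core TAATTA or its close variants, often together with a second homeodomain protein, and in worms TTX-3 acts with the homeodomain protein CEH-10 to switch on and maintain the genes of the AIY interneuron, which processes temperature and odour information. Introns of C. elegans genes can hold enhancers, and large introns of neuronal genes often do. They also hold many small noncoding genes, some of them transcribed by RNA polymerase III.

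The sequences around the summits of the strongest members show how varied these regions are. Each line gives 50 bp to each side of the summit on the plus strand of ce11 (WBcel235), read from the RefSeq genome of that assembly, in lower case, with TAATTA and with TAATTG or its reverse complement in capitals. The set holds the 8 members that come next after the strongest one, and the last of them lies in ttx-3 itself.
tba-7 (chrIII:11371377-11371477): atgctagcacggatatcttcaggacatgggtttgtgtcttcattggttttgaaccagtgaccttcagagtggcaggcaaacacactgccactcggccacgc
klp-6 (chrIII:5031537-5031637): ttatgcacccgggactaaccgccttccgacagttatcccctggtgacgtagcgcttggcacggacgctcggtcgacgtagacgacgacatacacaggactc
Y111B2A.12 (chrIII:12615107-12615207): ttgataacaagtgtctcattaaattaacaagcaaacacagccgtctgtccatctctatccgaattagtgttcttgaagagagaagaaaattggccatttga
usp-39 (chrII:2570626-2570726): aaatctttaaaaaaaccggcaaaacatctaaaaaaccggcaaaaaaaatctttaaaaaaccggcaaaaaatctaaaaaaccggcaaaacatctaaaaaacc
srt-52 (chrV:53439-53539): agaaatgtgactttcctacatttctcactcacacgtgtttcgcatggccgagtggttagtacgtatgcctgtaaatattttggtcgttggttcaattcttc
mom-1 (chrX:6296467-6296567): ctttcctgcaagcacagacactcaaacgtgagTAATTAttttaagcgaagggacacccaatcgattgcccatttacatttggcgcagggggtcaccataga
unc-104 (chrII:7001594-7001694): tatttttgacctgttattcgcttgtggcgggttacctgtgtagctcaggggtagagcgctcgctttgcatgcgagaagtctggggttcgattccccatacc
ttx-3 (chrX:11766406-11766506): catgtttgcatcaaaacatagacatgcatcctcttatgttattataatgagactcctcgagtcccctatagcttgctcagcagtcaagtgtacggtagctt

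Further members of the optimal list with TAATTA near the summit are shown because the counts below turn on this core, which in the pooled list was more frequent at members than at promoter-window and weak intronic regions. They were picked after their sequences were seen and are not all such members: those in tol-1 and vab-2, for example, are not shown.
trpa-1 (chrIV:11868002-11868102): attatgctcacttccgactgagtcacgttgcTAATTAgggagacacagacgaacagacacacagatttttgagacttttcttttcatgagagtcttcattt
nep-26 (chrII:10284913-10285013): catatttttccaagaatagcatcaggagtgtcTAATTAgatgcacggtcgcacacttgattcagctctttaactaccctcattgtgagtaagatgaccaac
casy-1 (chrII:5956227-5956327): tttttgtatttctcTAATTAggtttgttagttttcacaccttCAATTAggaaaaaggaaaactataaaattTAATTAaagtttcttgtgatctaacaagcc
Y111B2A.12 (chrIII:12616213-12616313): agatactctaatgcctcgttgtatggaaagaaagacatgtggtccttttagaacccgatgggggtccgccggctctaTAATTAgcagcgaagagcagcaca
hst-3.2 (chrX:2920519-2920619): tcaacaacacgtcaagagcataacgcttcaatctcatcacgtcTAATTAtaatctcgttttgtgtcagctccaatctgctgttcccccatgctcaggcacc
C25B8.8 (chrX:6613730-6613830): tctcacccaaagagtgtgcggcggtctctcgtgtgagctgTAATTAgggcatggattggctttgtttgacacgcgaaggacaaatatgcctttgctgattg

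The signal of a region is the peak strength that the authors' caller gave it, with no stated scale between lists. In the pooled list the members ran from 43.4 to 227, with a median of 49.2, against medians of 55.6 for strong promoter-window regions and 50.5 for strong distal intergenic regions. The 5247 weak intronic regions, which pass the same location rule but rank below 15000, had a median of 22.7. The lowest members were at cua-1, dpy-1 and hlh-30, each with a pooled signal of 43.4, and the nearest intronic regions below the threshold were at rab-37 and F22F7.7, also 43.4, and at cbs-2, 43.3. The signal was thus continuous across the threshold. The deposited lists include background regions kept for the comparison of replicates, and the members' −log10 q-values ran from 0.26 to 1.51, so a place in the list is not in itself a significant peak.

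The list that passed the authors' reproducibility filter (irreproducible discovery rate, IDR) held 700 regions, and these were the strongest of the pooled list. It held 50 members (7.87%), against 23.3% of all 3000 strong regions; pooled strength chose both, so nothing is read from this share. A summit within 100 bp was found in both replicate lists for 456 members (71.8%, exact 95% interval 68.1 to 75.3), against 76.5% of all 3000 strong regions. The share was 78.7% at strong promoter-window regions, 69.6% at strong distal intergenic regions and 3.01% at weak intronic regions. The pooled list was derived from the same 2 replicates, so pooled strength and replicate support are not independent. The gap to the weak intronic regions is therefore description only. Intervals here and below are Clopper-Pearson intervals and cover counting error only, and no p-values are given, since there was 1 group of 2 samples and regions are not replicates. A further 71 members had a summit in replicate 1 only, 101 in replicate 2 only, and 7 in neither. In 4 groups of 158 or 159 members, from the strongest to the weakest by rank, the share in both replicates was 84.3%, 67.9%, 71.5% and 63.5%.

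At the members found in both replicates the ratio of replicate 1 to replicate 2 signal had a median of 0.931, with a 10th percentile of 0.481 and a 90th of 1.77. Replicate 1 exceeded replicate 2 by more than a factor of 2 at 22 members, and the reverse held at 53. Across these 456 regions the replicates had a Pearson correlation of log2 signal of 0.141 and a Spearman correlation of -0.124, against 0.603 and 0.429 across 1085 promoter-window regions. These are descriptions over regions of the same libraries, and the members were chosen on the pooled signal and lie in a narrow range of it. The most unequal member was in col-99, which encodes a transmembrane collagen, with 66.2 in replicate 1 and 13.4 in replicate 2. Others higher in replicate 1 were in miz-1 (43.9 and 13.4), ints-8 (58.7 and 20.9, a region beside the strongest one), igcm-4 (40.9 and 14.96) and flcn-1, the folliculin gene (40.4 and 15.1). Those most in favour of replicate 2 were in ccct-1 (12.6 in replicate 1 and 45.2 in replicate 2), F58D5.5 (11.8 and 36.9), mac-1 (13.2 and 40.9), Y22D7AL.4 (11.4 and 35.0) and vab-10 (11.7 and 34.9). Of the members missing from 1 list, the strongest were in pqn-41 (pooled signal 85.8, replicate 1 only), F09A5.3 (85.2, replicate 1 only) and sea-2 (77.0, replicate 2 only).

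**Figure D1:**
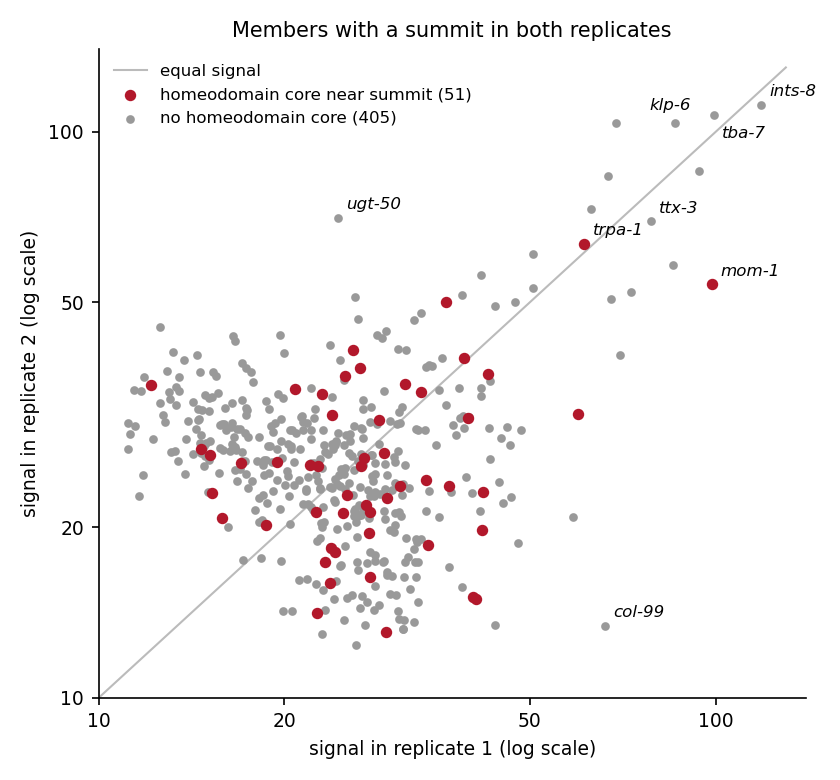
Signal in replicate 1 (horizontal axis) and replicate 2 (vertical axis), both on log scales, of the 456 members with a summit in both lists; each point is 1 region, red where the homeodomain core lies within 50 bp of the summit (51 regions), and the line marks equal signal. The points of ints-8, tba-7, klp-6, ttx-3 and trpa-1 lie near the line, while col-99 (66.2 and 13.4) and ugt-50 (24.4 and 70.6) lie far from it.

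The 20 strongest members had pooled signals of 94.9 to 227, and each had a summit in both replicates. The strongest of all was in an intron of ints-8, a subunit of the Integrator complex that processes small nuclear RNAs, at chromosome I, 13463882 to 13464029, which had 118 in replicate 1 and 111.7 in replicate 2. Its summit lay within 100 bp of rpr-1, the gene of the RNA subunit of RNase P. Next came regions in tba-7, which encodes an alpha-tubulin (99.3 and 107), and in klp-6, a kinesin of ciliated sensory neurons (85.9 and 103.9). The summit in tba-7 was near 3 annotated ncRNA genes, and that in klp-6 near srpr-2.2, a signal recognition particle RNA gene. The region in ckb-2, a choline kinase gene, lay at a second gene of this kind, srpr-1.2, with 72.9 in replicate 1 and 52.1 in replicate 2. Together 6 of the 20 had an annotated ncRNA gene within 100 bp, and the summit in unc-104, which encodes the kinesin that carries synaptic vesicle precursors (85.4 and 58.3), lay near the annotated pseudogene C52E12.t1. The window at unc-104 also held GTTCGA, the core of the box B element of tRNA genes, as did those in Y57G11C.22 and col-99. Only this exact string was counted, so windows without it may still hold variants of it.

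Most of the other strongest members had no annotated noncoding gene within 100 bp of the summit. Y111B2A.12 gave 94.0 in replicate 1 and 85.4 in replicate 2, and srt-52, a chemoreceptor gene, gave 67.0 and 83.6. The region in mom-1, which encodes the Porcupine homolog that adds lipid to Wnt proteins, gave 98.9 and 53.9. In usp-39, of the ubiquitin-specific protease family, the region gave 69.0 and 103.6; its 101 bp window was soft-masked as repeat over its whole length. W05H12.1 gave 62.9 and 73.04, and trpa-1, a TRP cation channel gene, held 2 of the 20, at 61.2 and 63.4 and at 50.6 and 53.1, the weaker of them near the ncRNA gene C29E6.11. For Y41G9A.17 the values were 67.8 and 50.6, and for Y57G11C.22 they were 50.6 and 60.95. The list ended with ugt-50, a UDP-glucuronosyltransferase gene (24.4 in replicate 1 and 70.6 in replicate 2), T28F4.1 (69.96 and 40.3, near the ncRNA gene T28F4.7), col-99, nep-26, a neprilysin-family peptidase gene (59.9 and 31.8), and ptp-3, which encodes a LAR-type receptor phosphatase of axon guidance and synapses (41.7 and 56.0).

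The member in ttx-3 had a pooled signal of 141 and gave 78.5 in replicate 1 and 69.5 in replicate 2, so the replicates differed little there. It spans 11766231 to 11766680 on chromosome X, in intron 7 of 9 of the transcript with the longest intron at that point, 1588 bp from the nearest coding 5′ end. Its 101 bp window held neither TAATTA nor TAATTG. Because the transgene brings a further copy of the locus, all pooled regions within 30000 bp of ttx-3 were counted. There were 18, or 277 per Mb, against 299 per Mb over the nuclear genome, and their median signal was 34.8, against 26.9 over the pooled list. Of these 18, 7 were among the 3000 strongest, where 3000 of the 30000 regions in the whole pooled list are. Beside the member in ttx-3 these 7 included 2 further members, in C40H5.2 (74.7) and in lact-7 (43.8). They also included a summit in the promoter window of ttx-3 (52.3) and a summit at a small RNA gene (557), the strongest of the 7. What the transgene adds to these values was not tested.

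Noncoding genes other than tRNA, snoRNA and snRNA genes lay within 100 bp of 46 members (7.24%, 5.35 to 9.54), against 250 weak intronic regions (4.76%, 4.20 to 5.38). Most were of the unclassified ncRNA type, near 40 members (6.30%) and 2.13% of weak intronic regions, whereas piRNA genes were near 2 members (0.315%) and 2.40% of weak intronic regions. The 40 members near ncRNA genes had a mean GC content of 43.1 ± 11.9% (SD over regions). Of these 40, 12 were in the optimal list, where 7.87% of all 635 members were. TAATTA was held by 4 of the 40, where 10.7% of all members held it. Pooled strength chose both the optimal list and the members, so nothing is read from the count in that list. MicroRNA genes were near 2 members: mir-54 in F09A5.3 and mir-58a in Y67D8A.2. Without the 46 members, 421 of the other 589 (71.5%) were found in both replicates and 64 (10.9%) held TAATTA, against 71.8% and 10.7% of all members. The 46 are too few to move these shares far, so nothing is read from this.

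Sequence composition differed between the classes. The 101 bp windows at member summits held 35.9 ± 10.3% GC (SD over 635 regions), against 40.6% at promoter-window regions, 38.8% at distal intergenic regions and 31.5% at weak intronic regions. All intron sequence that passes the location rule, 26.2 Mb, held 32.0%. More than 50% of the window was soft-masked as repeat at 337 members (53.1%), against 27.9% of promoter-window, 37.6% of distal intergenic and 63.4% of weak intronic regions. Both measures ran with rank among the members: in the 4 groups by rank, mean GC was 41.4%, 34.8%, 34.3% and 33.2%, and the mostly masked share 32.1%, 52.2%, 60.1% and 67.9%. Exact repetition was rarer. In 561 members (88.3%) every 36-base stretch of the window occurred once in the nuclear genome, against 96.4% of promoter-window regions, and in no member were all of them repeated. The signal recognition particle RNA sites were among the exceptions, with 71.2% of the stretches repeated at klp-6 and 89.4% at ckb-2.

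The homeodomain core TAATTA lay within 50 bp of the summit at 68 members (10.7%, 8.41 to 13.4). It was found at 5.95% of promoter-window regions (4.76 to 7.33), 7.38% of distal intergenic regions (5.32 to 9.91) and 6.71% of weak intronic regions (6.05 to 7.42). Across consecutive 101 bp windows of the whole nuclear genome the share was 4.75%, and at strong regions beside small RNA genes it was 0.940%. Thus the interval of the members lay above those of the promoter-window and weak intronic regions and overlapped that of the distal intergenic regions. The related core TAATTG did not differ in this way, with 8.66% of members (6.59 to 11.1) against 7.81% of weak intronic regions and 8.16% of genome windows. Among the 9 members with TAATTA in the optimal list were mom-1, trpa-1, nep-26, casy-1, hst-3.2 and vab-2, and members with TAATTA had a median pooled signal of 50.4, against 49.0 for the other members.

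**Figure D2:**
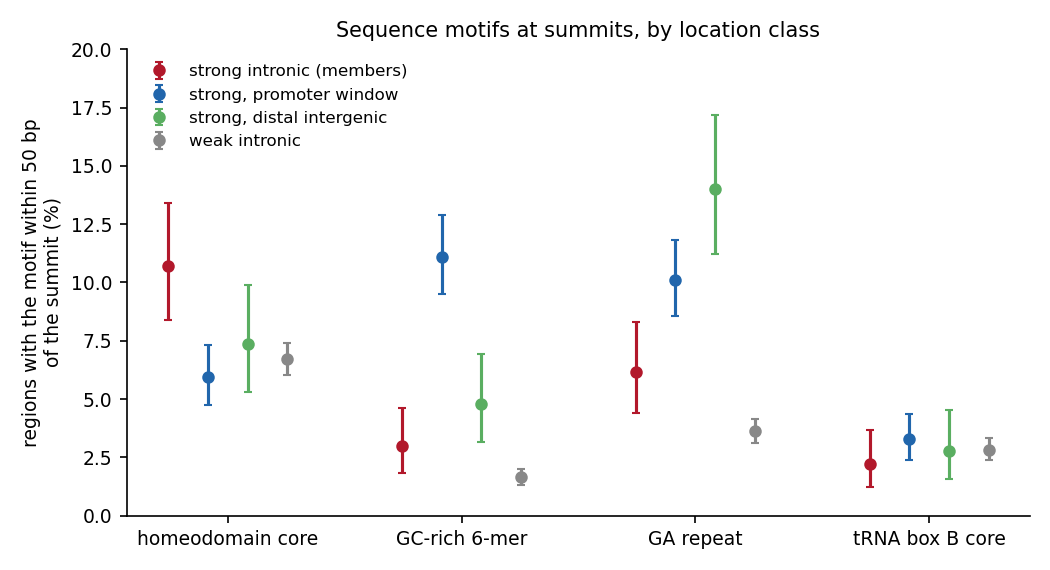
Share of regions with each motif within 50 bp of the summit on either strand (points) with exact 95% intervals (bars), for the members and 3 other location classes. The homeodomain core is TAATTA, the GC-rich 6-mer is GCGCAC, the GA repeat is GAGAGA and the box B core is GTTCGA. Members are highest for the homeodomain core (10.7%) and lie below both strong classes for the GC-rich 6-mer (2.99%) and the GA repeat (6.14%). For the homeodomain core and the GC-rich 6-mer their interval overlaps that of distal intergenic regions.

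TAATTA is made of A and T alone, so its share was also taken within classes of GC content, a split chosen after the data were seen. Among windows with 40% GC or more it was at 21 of 218 members (9.63%, 6.06 to 14.3), against 2.21% of promoter-window (1.27 to 3.56), 2.95% of distal intergenic (1.20 to 5.99) and 2.75% of weak intronic windows (1.73 to 4.13). In the other classes of GC content the members did not stand above the other strong regions to that extent. At 28 to 34% GC the core was at 8.21% of members (4.17 to 14.2), 8.48% of promoter-window, 11.9% of distal intergenic and 6.50% of weak intronic windows. At 34 to 40% it was at 9.09% of members (4.45 to 16.1), 9.88% of promoter-window, 8.62% of distal intergenic and 3.90% of weak intronic windows. Under 28% GC the shares were close, at 26 of 173 members (10.1% to 21.2%), 12.5% of promoter-window, 12.5% of distal intergenic and 9.75% of weak intronic windows. In windows that were not mostly masked, 42 of 298 members held it (14.1%, 10.4 to 18.6), against 5.04% of promoter-window (3.76 to 6.58), 7.40% of distal intergenic (4.84 to 10.7) and 7.24% of weak intronic windows (6.12 to 8.49), so the interval of the members overlapped that of the distal intergenic windows. In mostly masked windows the shares were 7.72% of members (5.10 to 11.1), 8.31% of promoter-window, 7.35% of distal intergenic and 6.40% of weak intronic windows, with overlapping intervals.

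The core was more frequent beside the summits of members than farther out. In 50 bp bins, 7.56% of members held it in the bin just left of the summit and 4.41% in the bin just right, a mean of 5.98%, against a mean of 2.17% per bin beyond 250 bp, a ratio of 2.75. The same ratio was 1.15 at promoter-window regions, 1.29 at distal intergenic regions and 1.62 at weak intronic regions. Member summits lay a median of 362 bp from the nearest splice site, so bins beyond 250 bp can lie in exons. These positions are of the pooled list only. Left and right are along the plus strand of the genome, and the core reads the same on both strands.

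**Figure D3:**
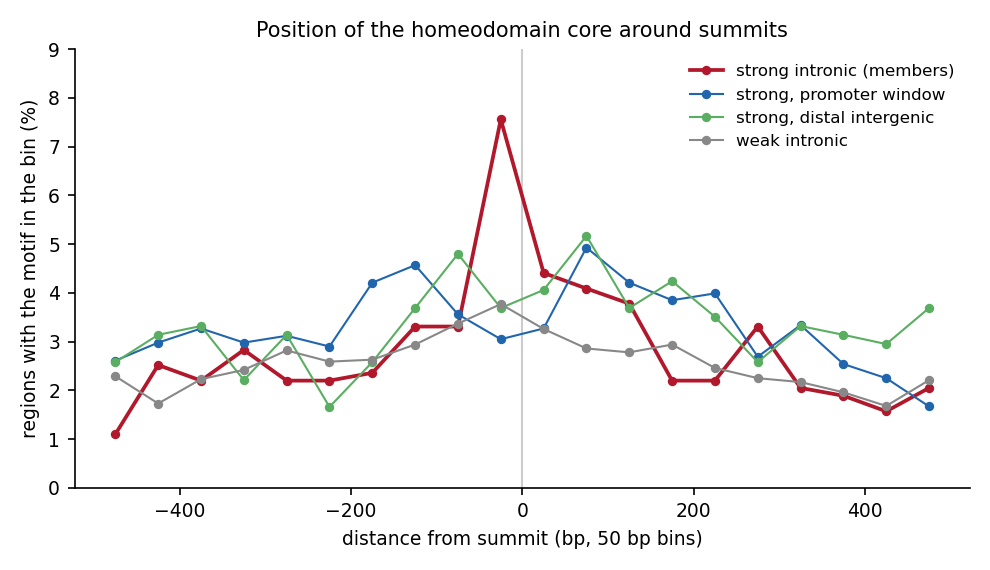
Share of regions (vertical axis, percent) that hold the homeodomain core TAATTA in each 50 bp bin of distance from the summit (horizontal axis, bp), for the members and 3 other location classes. The line of the members stands at 7.56% and 4.41% in the 2 bins beside the summit and averages 2.17% beyond 250 bp, a ratio of 2.75, against ratios of 1.15 to 1.62 in the other classes.

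The replicates did not give the same share on their own. With the same rule applied to each replicate's list, TAATTA lay at 10.5% of 591 strong intronic regions of replicate 1 (8.14 to 13.2), against 7.60% of its promoter-window regions (6.26 to 9.12), 8.69% of its distal intergenic regions (6.54 to 11.3) and 6.74% of its weak intronic regions (6.05 to 7.49). In replicate 2 it lay at 6.62% of 755 strong intronic regions (4.95 to 8.64), against 5.53% of its promoter-window regions (4.34 to 6.94), 6.40% of its distal intergenic regions and 6.58% of its weak intronic regions, so replicate 2 alone showed no excess over weak intronic regions. The gap between the intervals of members and promoter-window regions, seen in the pooled list, was present in neither replicate alone. Under 40% GC the core was at 10.2% of strong intronic and 13.0% of promoter-window windows in replicate 1, and at 7.32% and 8.63% in replicate 2. Among windows of 40% GC or more the share of strong intronic windows in replicate 1 was 11.1% (7.10 to 16.3). Promoter-window, distal intergenic and weak intronic windows of that list gave 1.91%, 2.93% and 2.23%, with intervals below that one. In replicate 2 the share was 4.95% (11 of 222), against 2.02%, 2.20% and 1.62% in the same classes. There the interval of the strong intronic windows overlapped that of each other class, so replicate 2 alone did not set them apart. Of the members with a summit in both lists, 14.2% held TAATTA where replicate 1 was the higher (9.73 to 19.8) and 8.73% where replicate 2 was (5.55 to 12.9). The lists of the replicates also shared only part of the members. Strong intronic regions of replicate 1 matched 252 members (39.7% of members, 42.6% of the replicate's regions) and those of replicate 2 matched 306 (48.2% and 40.5%).

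By pooled rank, the share of intronic summits with TAATTA was 9 of 50 over ranks 1 to 700 (exact 95% interval 8.58% to 31.4%), 10.3% to rank 1500 and 44 of 440 summits to rank 3000. Below the threshold of 3000 it was 6.35% to rank 7500, 6.62% to rank 15000 and 6.71% to rank 30000. For windows of 40% GC or more the shares over the same ranks were 21.2%, 11.5%, 5.65%, 3.74%, 2.38% and 2.75%, with 33 windows in the highest class. Replicate support fell with rank too, at 92.0%, 78.6%, 67.3%, 46.6%, 24.4% and 3.01%, but the pooled signal that gives the rank comes from the same replicates. Mean GC was 45.2%, 38.7%, 33.9%, 32.7%, 31.8% and 31.5%.

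**Figure D4:**
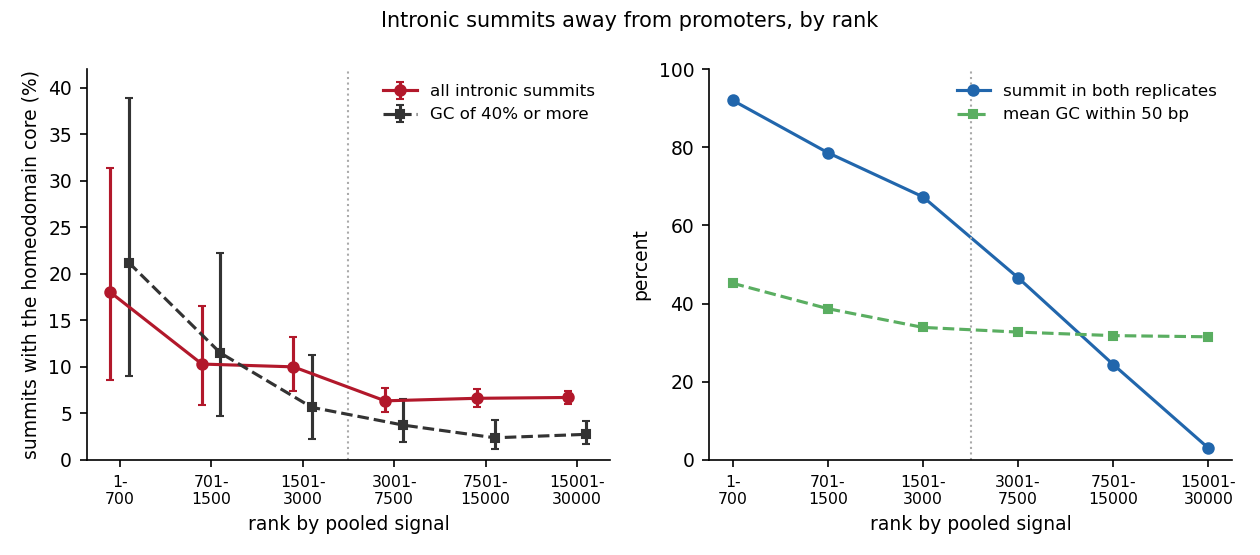
Intronic summits that pass the location rule, in 6 classes of rank by pooled signal, strongest at the left; the dotted line marks the threshold of 3000 that chose the members; left, the percent with the homeodomain core in all windows and in those of 40% GC or more, with exact 95% intervals, which stands at 9 of 50 and 7 of 33 summits in the strongest class. Right, the percent with a summit in both replicates (92.0% to 3.01%) and the mean GC percent (45.2 to 31.5).

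Some motifs that were frequent at strong promoter peaks were rarer at members. The GC-rich 6-mer GCGCAC lay at 19 members (2.99%, 1.81 to 4.63), against 11.1% of promoter-window regions, 4.80% of distal intergenic regions and 1.64% of weak intronic regions. Its interval at members overlapped that at distal intergenic regions (3.16 to 6.95). The GA repeat GAGAGA lay at 39 members (6.14%, 4.40 to 8.30), against 10.1% of promoter-window regions, 76 of 542 distal intergenic regions and 3.62% of weak intronic regions. The box B core GTTCGA was at 14 members (2.20%), against 36.1% of strong regions beside small RNA genes. Runs of 6 A bases on either strand (AAAAAA) were at 49.1% of members and 63.0% of weak intronic regions. Of the other listed motifs, the GATA site TGATAA lay at 5.83% of members and 7.30% of weak intronic regions, the E-box CAGCTG at 0.787% and 1.18%, the E-box CACGTG at 1.10% and 1.03%, TGACGT at 2.20% and 2.12%, and CTCTCC at 3.31% and 1.60%.

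Members lay in longer introns than weak intronic regions. The longest annotated intron around the summit had a median of 1256 bp for members, with quartiles of 702 and 4067 bp, against a median of 1098 bp and quartiles of 615 and 2556 bp for weak intronic regions. Introns of 4000 bp or more held 160 members (25.2%) and 17.7% of weak intronic regions. In those long introns 24 of 160 members and 6.25% of weak regions held TAATTA, while in introns of 1000 to 4000 bp the shares were 7.17% of members and 5.48% of weak regions, and in introns under 1000 bp they were 11.2% of members and 7.93% of weak regions. Mean GC in the long introns was 39.4% at members and 33.7% at weak regions. Summits of members were farther from splice sites, with a median of 362 bp against 281 bp, and 12.5% of members lay within 100 bp of one, against 20.6% of weak intronic regions. The median distance to the nearest coding 5′ end was 1897 bp for members and 1835 bp for weak intronic regions.

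A first intron in at least 1 annotated transcript held 209 members (32.9%, 29.3 to 36.7), against 27.8% of weak intronic regions (26.6 to 29.1). Of the intron sequence that passes the location rule, 26.5% is in first introns. With only the transcript of longest coding sequence the members' share was 22.8%, so the share rests on how transcripts are chosen. Members in first introns held TAATTA in 18 of 209 cases (8.61%, 5.18 to 13.3), against 50 of 426 members in other introns (11.7%, 8.84 to 15.2), with overlapping intervals.

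Chromosomes differed in how many members they held. Per Mb of intron sequence that passes the location rule there were 24.8 members on chromosome I, 27.6 on II, 32.1 on III, 25.9 on IV, 21.2 on V and 14.8 on X. The 65 members on X were 10.2% of all members (7.99 to 12.9), where X holds 16.8% of the eligible sequence and 12.9% of the weak intronic regions. On III the 139 members were 21.9% (18.7 to 25.3), against 16.5% of the eligible sequence and 20.9% of weak intronic regions. Replicate support was alike across chromosomes, from 69.0% on II to 73.4% on III.

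**Figure D5:**
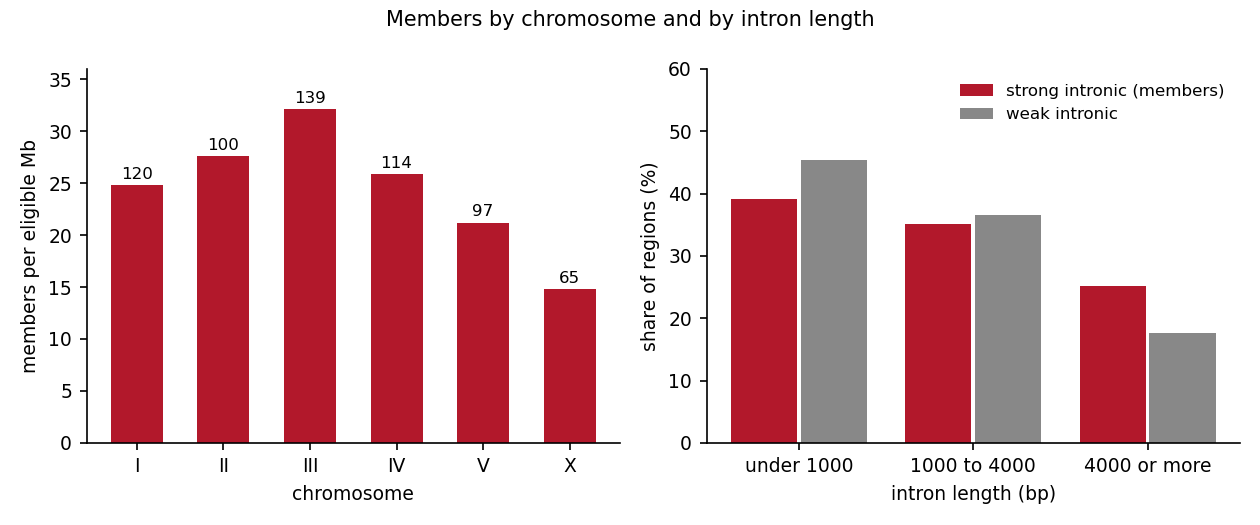
Left, members per Mb of intron sequence that passes the location rule, by chromosome, with the number of members above each bar; X is lowest at 14.8 and III highest at 32.1. Right, the share of members (red) and of weak intronic regions (grey) in 3 classes of intron length in bp, with 25.2% and 17.7% in introns of 4000 bp or more.

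The members lay in 505 host genes, of which 413 held 1 member, 65 held 2 and 27 held 3 or more. Host genes had a median length of 8565 bp, against 2027 bp over 19973 protein-coding genes. The rule needs intron sequence away from coding 5′ ends, which favours long genes, so nothing is read from this difference. Of the hosts, 80 (15.8%) also had a strong summit in their promoter window, against 8.59% of all coding genes. Hosts were not matched to the other genes in length or number of 5′ ends, so this too is description only. Neighbouring members on a chromosome were a median of 67367 bp apart, and 21 neighbouring pairs had overlapping regions, so members of 1 host need not be separate sites. In 4 cases a summit lay in introns of 2 hosts, and in 2 it lay in a coding exon of another gene.

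The most members, 7, lay in pqn-41, a gene for a glutamine-rich protein, with signals of 45.6 to 85.8, of which 4 were in both replicates. The formin-related gene frl-1 held 6, all in both replicates, at 46.01 to 59.78, in windows that were 78.1% masked on average. hmr-1, the gene of the worm's classical cadherin, also held 6, at 44.1 to 69.4, of which 4 were in both replicates and 2 held TAATTA. These 2 were its strongest and lay in the same intron of 5557 bp, with 37.0 in replicate 1 and 23.7 in replicate 2 at the stronger and 31.3 and 35.9 at the other. Hosts of 4 members were Y111B2A.12 (45.3 to 184), the ephrin gene efn-4 (43.9 to 70.4), Y43F8C.6, F53A10.2 and pes-4. All 4 members of efn-4 were in its first intron and in both replicates, and 2 of them held TAATTA. Those of Y111B2A.12 shared an intron of 7076 bp, and 2 were in both replicates.

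Hosts of 3 members included signalling and cytoskeleton genes: ced-1, the engulfment receptor gene; sos-1, which encodes a Ras exchange factor; tol-1, the Toll receptor gene; jip-1, a JNK scaffold gene; unc-53, a regulator of cell migration and axon growth; and mbk-2, a DYRK-family kinase gene. Others were ppfr-1, a phosphatase regulatory subunit gene with signals of 62.8 to 90.1, flcn-1, hmt-1, kcnl-1, rin-1, sea-2, cab-1, pqn-27, rad-54.B, C14B4.2, F09A5.3, Y54F10BM.3 and Y75B8A.6. Of the 3 members in tol-1, 2 held TAATTA, the stronger at 39.1 in replicate 1 and 39.9 in replicate 2.

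Gene lists describe which kinds of genes were hosts; they name chosen genes and are not complete. Of the 9 lists, axon guidance and adhesion genes held the most members, 25 (3.94%, 2.56 to 5.76), in 12 of the 56 genes, against 111 weak intronic regions (2.12%, 1.74 to 2.54). These genes hold 1.57% of the eligible intron sequence. Over all coding genes, 505 of 19973 were hosts. The rule favours long genes and the list was not matched in length, so nothing is read from the number of hosts. Of these 25 members, 21 were in both replicates and 8 held TAATTA, where 71.8% and 10.7% of all 635 members did. The 3 strongest were in ptp-3, in casy-1, the calsyntenin gene (pooled signal 92.9, with 36.5 in replicate 1 and 50.04 in replicate 2), and in unc-33, which encodes a collapsin response mediator protein of axon outgrowth (75.4, with 32.5 and 46.5). Members also lay in the ephrin genes vab-2 (26.5 and 38.2) and efn-4 and in the Eph receptor gene vab-1 (41.6 and 21.4 at its stronger member). The list thus counts several members of the same long genes, with 6 from hmr-1, 4 from efn-4 and 3 from unc-53. Of the 8 members with TAATTA, 2 were in hmr-1 and 2 in efn-4.

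The listed ion channel genes held 6 members (0.945%, 0.348 to 2.05), against 118 weak intronic regions (2.25%, 1.86 to 2.69), with 2.25% of the eligible sequence. All 6 members were in both replicates. The list leaves out the channel genes trpa-1, whose members were far stronger, and kcnl-1, and the hosts lgc-1, lgc-31, lgc-39, lgc-55 and acd-3, so these shares do not describe ion channel genes as a whole. The strongest members in the list were in inx-19, an innexin gene (37.5 in replicate 1 and 30.4 in replicate 2), egas-1 (27.6 and 26.9) and irk-2, an inward rectifier potassium channel gene (13.5 and 34.9). Homeobox genes held 4 members (0.630%) and 1.14% of weak intronic regions: ttx-3, ceh-62 (29.0 and 34.9), ceh-45 (24.7 and 39.5) and ttx-1, the Otx gene of the AFD thermosensory neuron (40.4 in replicate 2 only). None of the 4 held TAATTA. Nuclear hormone receptor genes held 8 (1.26%, against 1.30% of weak intronic regions), the strongest in nhr-17 (17.1 and 27.2), nhr-170 (30.2 and 26.1) and nhr-46 (22.7 and 24.2).

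Of the 12 AIY genes, 2 were hosts, where 505 of 19973 coding genes were; their members were 0.315% of all (0.0382 to 1.13), against 0.172% of weak intronic regions and 0.156% of the eligible sequence. The hosts were ttx-3 and ser-2, a tyramine receptor gene, whose member had a pooled signal of 64.1 and was in the replicate 2 list only, at 50.2. The 11 AIA and NSM genes held 0 of 635 members (exact 95% upper bound 0.579%), against 12 weak intronic regions (0.229%). Synaptic release genes held 6 members (0.945%, against 0.820% of weak intronic regions), the strongest in unc-104, dkf-2, a protein kinase D gene (30.7 and 21.3), and cab-1 (17.4 and 32.2). Muscle genes held 3 (0.472%, against 0.724%): act-4, an actin gene (24.97 and 36.45), lev-11, the tropomyosin gene (31.0 and 32.6), and dyb-1, which was in neither replicate list. Basement membrane and cell cortex genes also held 3 (0.472%, against 0.858%), 2 in vab-10, the spectraplakin gene, and 1 in let-2, a type IV collagen gene.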

How the data were processed

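TTX-3-eGFP ChIP-seq peak lists of 2 replicates in 1 group were used as deposited on ce11. By the deposited file descriptions the authors derived 1 list from each replicate, a pooled list from both and, through IDR, an optimal list; each full list holds 30000 regions. The deposited signal is the caller's peak strength; the deposited −log10 q-value ran from 0.26 to 1.51 at members and was not used. The deposited summit offset gave positions. Which aligner and caller made them, and at which IDR threshold, is not given in the sources used here. Depth is unknown.

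Summits were placed on the Ensembl annotation of WBcel235, which is ce11, after checking that no region ended past a chromosome (0 did). Of 2811 genes without a name, 2758 were named from RefSeq by equal coordinates. Windows of 101 bp (50 bp to each side) came from the RefSeq genome with its soft-masking. Motifs were counted on both strands, once per window; GTTCGA and the other motifs can overlap. A replicate match was a summit within 100 bp, the strongest taken. Nearly all members (634 of 635) were 450 bp wide.

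The members, the 9 gene lists and the 11 motifs were chosen with earlier results of these data known, and 3 motifs and the splits by GC, masking and rank after these values were seen. The text names the 20 strongest members, all in AIY or AIA and NSM genes, hosts of 3 or more, the 3 strongest per list, those beside the threshold and the 5 most unequal each way. Shares have exact 95% intervals (Clopper-Pearson), for counting error only. No test was run: the design has 1 group and regions are not replicates. Alternatives changed the number of regions searched, the promoter window, the exons, the replicate, the distances, the sequence window and the transcript. The scripts were tested on simulated data. Python 3.11.15, numpy 2.4.6, pandas 2.3.3, scipy 1.17.1 and matplotlib 3.10.9 were used.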

Additional observations from a re-analysis of the deposited data

How the results depend on the processing

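Of 48 values under 10 alternative settings, 33 stayed within the interval of the value reported, or within 1.5 times the number of members, and 15 did not. These are values of the members alone, with no comparison group, so they have no direction. With the 1500 strongest pooled regions in place of 3000 there were 195 members, of which 82.1% were in both replicates; the median intron was 1581 bp, the mean GC 40.4% and GAGAGA was at 9.74%. With a promoter window of 2000 bp upstream and 500 bp downstream 28.6% were in a first intron, and with only the transcript of longest coding sequence 22.8%. Summits matched within 50 bp put 48.2% of members in both replicates, and within 200 bp 87.9%. Windows of 100 bp to each side of the summit held TAATTA at 16.7% of members, GCGCAC at 6.93% and GAGAGA at 12.4%, since they are longer.

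Leaving out 1 replicate, with the rule applied to the other's list, gave 591 to 755 members, of which 35.2% to 43.0% had a summit in the replicate left out. TAATTA was at 6.62% (without replicate 1) to 10.5% (without replicate 2), GCGCAC at 2.65% to 4.40%, GAGAGA at 6.62% to 7.11%, a first intron held 32.2% to 33.3%, the median intron was 1168 to 1407 bp and the mean GC 35.6% to 36.1%. The cause of the difference in TAATTA between the replicates was not tested. No paired analysis was possible because there was 1 group. Without read counts, the precision of a single region's signal is unknown.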

Other observations

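The bases beside TAATTA were looked at after the strongest members had been read, so the counts below describe the same regions in which the pattern was noticed. The base just 5′ of the core was taken on each strand, so a copy of the core gives 2 bases. It was a C in 49 of 160 cases at members (30.6%), against 11.2% at promoter-window regions, 20.7% at distal intergenic regions and 15.2% at weak intronic regions. The 8-base palindrome CTAATTAG lay at 10 members (1.57%, 0.758 to 2.88), against 0.145% of promoter-window, 0.369% of distal intergenic and 0.229% of weak intronic regions, and at 0.126% of 101 bp windows of the nuclear genome. Its hosts were trpa-1, nep-26, casy-1, tol-1, Y56A3A.7, rin-1, magu-2, which encodes a membrane-associated guanylate kinase, grk-1, a G protein-coupled receptor kinase gene, C14B4.2 and mig-1, a Frizzled Wnt receptor gene. Of these 10, all but C14B4.2 had a summit in both replicates, where 71.8% of all 635 members did. Those in trpa-1, nep-26, casy-1 and tol-1 were among ranks 1 to 700, where 92.0% of members did. The 10 are few and were picked after their sequences were seen, so nothing is read from this count. The shorter string ATTAGC lay at 7.09% of members (5.22 to 9.37), against 3.19% of promoter-window, 2.77% of distal intergenic and 3.49% of weak intronic regions. ATTGGC lay at 7.87% of members (5.90 to 10.2), against 4.28% of promoter-window, 4.43% of distal intergenic and 5.37% of weak intronic regions. For ATTGGC the members' interval overlapped those of distal intergenic (2.86 to 6.52) and weak intronic regions (4.78 to 6.02). For CTAATTAG it overlapped that of distal intergenic regions (0.0447 to 1.33). Shares of these strings in each replicate's own list are not given.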
